A study of Homo sapiens with 56 samples.

Results

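Mv4;11, an established human acute myeloid leukaemia line, was exposed for 3 h to PMR-116 or to CX-5461, each at 1 µM, and what is described here is where the effects of these compounds on messenger RNA differed. The comparison was chosen by its labels, as all 12 libraries of this line at 3 h, out of 56 libraries in the series. They form 4 groups of 3: PMR-116 treated, PMR-116 vehicle, CX-5461 treated and CX-5461 vehicle. A buffer of citrate and phosphate served as vehicle throughout, the vehicle libraries of the compounds were separate, and all 12 libraries carry the same batch label. RNA was sequenced in bulk from poly(A)-selected libraries. The quantity reported is the log2 fold change of PMR-116 against its vehicle minus the log2 fold change of CX-5461 against its vehicle. It is called the difference, and it is positive where a transcript was higher under PMR-116 than under CX-5461 once each vehicle had been taken into account. No library was shared between the effects that are subtracted.

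Both compounds are inhibitors of RNA polymerase I, which makes the precursor of the large ribosomal RNAs in the nucleolus. When ribosome production is disturbed, free ribosomal proteins bind MDM2, the ubiquitin ligase that keeps the transcription factor p53 low, and p53 then switches on genes for cell cycle arrest, apoptosis and stress adaptation. Among these, CDKN1A inhibits cyclin-dependent kinases, and genes of mitosis are then repressed through the DREAM complex at promoter elements of the cell cycle. Mv4;11 carries a KMT2A fusion and an internal tandem duplication of the receptor FLT3, and is a single line, so the values describe these cells only.

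Total estimated counts per library ran from 30554698 to 40981473, and between 28025 and 30022 genes had a count. Correlations of log2 CPM (counts scaled to a common library size) between replicates of a group lay between 0.9936 and 0.9954. Of the myeloid markers, CD33 was at 69.2 to 120 CPM, FLT3 at 288 to 472, SPI1 at 195 to 262 and LYZ at 1100 to 1480, with HOXA9 at 54.4 to 85.4 and MEIS1 at 67.7 to 91.3. MPO was low at 6.53 to 10.8 CPM, ITGAM at 1.79 to 5.48 and CD14, a monocyte surface marker, at 0.132 to 0.637. Nothing in the labels says that replicate libraries came from separate cultures, so p-values measure a spread between libraries that may be technical. That spread was estimated over all 24 Mv4;11 libraries, those at 12 h included. In bulk RNA, fewer cells of a kind and less RNA per cell cannot be told apart.

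Where the effects of both compounds were called they mostly had the same direction, and 275 of 20495 genes tested passed the test of the difference itself (edgeR's quasi-likelihood test, 2-sided, Benjamini-Hochberg adjusted p under 0.05, which is what "called" means throughout). Of these, 125 (0.61% of genes tested) were higher under PMR-116 and 150 (0.732%) were lower, and 240 were protein-coding. At an unadjusted p under 0.05 there were 1253 higher and 1407 lower. PMR-116 alone was called against its vehicle for 2253 genes upward (11% of genes) and 2686 downward (13.1%), and CX-5461 for 1036 upward (5.05%) and 1354 downward (6.61%). Both effects were called in the same direction for 1700 genes, 71.1% of the genes called for CX-5461 and 34.4% of those called for PMR-116. They were called in opposite directions for 11. Across the 5618 genes called for either compound the effects correlated with Pearson r = 0.652 and Spearman's rank correlation of 0.75, and across all genes tested Pearson r was 0.416, a description over genes, which are not independent replicates.

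**Figure D1:**
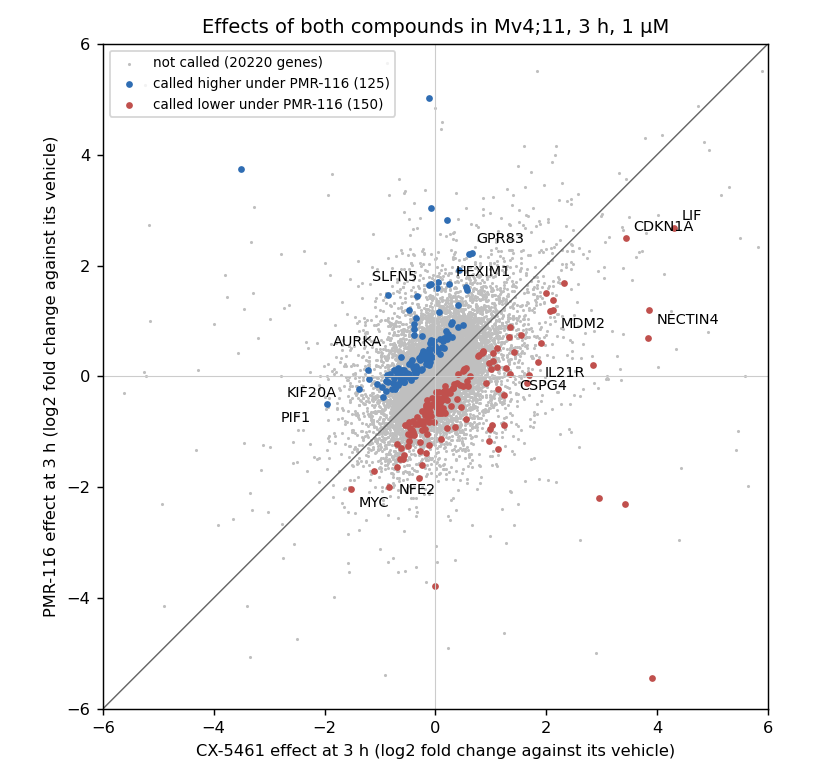
Log2 fold change against its own vehicle at 3 h for CX-5461 (horizontal axis) and PMR-116 (vertical axis), 1 point per gene, with the line of equal effects. Blue points (125) were called higher and red points (150) called lower under PMR-116, and 24 genes, 0 of them called, lie outside the plotted range.

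The 275 genes fall into several kinds. In 19 genes both compounds raised the transcript and CX-5461 raised it more, with median effects of 1.54 for CX-5461 and 0.755 for PMR-116 on the log2 scale. In 28 genes both lowered it and PMR-116 lowered it more, with medians of -1.04 for PMR-116 and -0.475 for CX-5461. Another 48 genes were called under CX-5461 alone and lay higher under PMR-116, with median effects of -0.582 for CX-5461 and 0.00983 for PMR-116. PMR-116 alone was called for 61 of the genes that lay higher under it and for 65 that lay lower. Only 25 of the called genes were 2-fold or more higher under PMR-116 and 33 were 2-fold or more lower. For 7165 genes (35% of those tested) the 95% interval of the difference lay within 0.5 log2 of zero.

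The vehicle groups, subtracted from each other in the same fit, gave 0 called genes in edgeR's test, 762 (3.72%) at an unadjusted p under 0.05, 1 in DESeq2 and 0 in limma-voom. Among the 275 genes the median absolute difference between vehicles was 0.0706 on the log2 scale, beside 0.606 for the median absolute difference of effects. The largest absolute difference between vehicles among them was 4.1, so the vehicles were not close for every called gene. The count of calls was less steady than the direction. It was 143 without PMR-116 vehicle replicate 3, 152 without PMR-116 treated replicate 3, 160 without CX-5461 treated replicate 3, 164 without CX-5461 vehicle replicate 1, 172 without PMR-116 vehicle replicate 2, 172 without CX-5461 vehicle replicate 3 and 458 without PMR-116 treated replicate 1. With the replicate number as a block within each compound and time the count was 480. With only the 3 h libraries in the fit it was 139.

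Most targets of p53 rose under each compound, and 11 targets were called lower under PMR-116 than under CX-5461. Of 73 tested members of a list of 77, PMR-116 raised 55 and lowered 4, against 11% and 13.1% of all genes. CX-5461 raised 54 and lowered 1, against 5.05% and 6.61% of all genes. In the difference 0 were called higher and 11 lower, against 0.61% and 0.732% of all genes. Against vehicle, 10 of these 11 were called for PMR-116 and all 11 for CX-5461. The exception was BAX, with 0.05 ± 0.06 under PMR-116 and 0.42 ± 0.06 under CX-5461. The median effect of the members was 0.69 on the log2 scale for PMR-116 and 0.89 for CX-5461, and the median difference was -0.29, against -0.01 for all genes. The summed level of the list was 3950 to 4300 CPM in PMR-116 vehicle, 3960 to 4290 in CX-5461 vehicle, 6570 to 6810 in PMR-116 treated and 8170 to 8940 in CX-5461 treated libraries. The summed ranges of the treated groups did not overlap, and those of the vehicle groups nearly coincided.

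CDKN1A, the inhibitor of cyclin-dependent kinases, stood at 99.03, 104 and 122 CPM in CX-5461 vehicle libraries and at 1170, 1089 and 1268 with CX-5461. It stood at 100, 118 and 124 CPM in PMR-116 vehicle libraries and at 661, 625 and 650 with PMR-116. Every treated library was above every vehicle library, and every CX-5461 library was above every PMR-116 library. The rise was 5.66-fold under PMR-116 and 10.9-fold under CX-5461, a difference of -0.94 ± 0.13 on the log2 scale (SE, adjusted p = 0.000359). MDM2, the ubiquitin ligase of p53 and itself a p53 target, stood at 758, 646 and 769 CPM with CX-5461 and 424, 357 and 355 with PMR-116. Its vehicle levels were 148, 159 and 190 CPM beside CX-5461 and 171, 151 and 174 beside PMR-116. The treated groups again did not overlap, and the difference was -0.93 ± 0.16 (adjusted p = 0.00255).

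**Figure D2:**
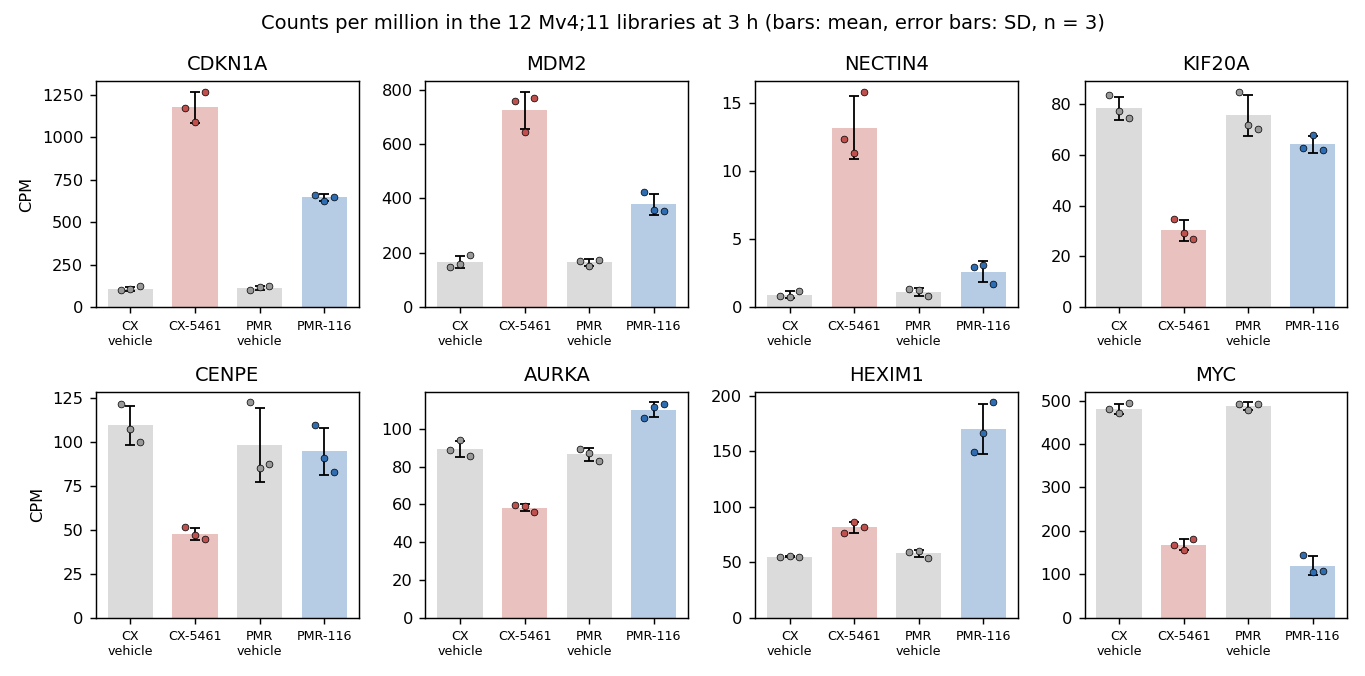
CPM of 8 genes in each of the 12 libraries at 3 h, with bars for the mean and error bars for the SD of 3 libraries. CDKN1A, MDM2 and NECTIN4 were higher with CX-5461 than with PMR-116, KIF20A, CENPE and AURKA were lowest with CX-5461, HEXIM1 was highest with PMR-116, and MYC was low with both.

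By role, the called members were spread over 4 of the 5 groups. Of 15 feedback regulators 3 were lower under PMR-116: MDM2, the zinc finger gene ZNF561 (-0.61 ± 0.12) and PPM1D, a phosphatase that dampens p53 signalling (-0.45 ± 0.09). Of 10 genes of cell cycle arrest 2 were lower, CDKN1A and BTG2, an antiproliferative factor (-0.49 ± 0.12). Of 18 genes of death receptors and apoptosis 3 were lower: FDXR, a mitochondrial reductase (-0.79 ± 0.12, adjusted p = 0.00121), BBC3, which encodes the BH3-only protein PUMA (-0.75 ± 0.15, adjusted p = 0.00747), and BAX, a pore-forming protein (-0.37 ± 0.09). Of 21 genes of stress, metabolism and secretion 3 were lower: the cytokine gene LIF (-1.62 ± 0.38), the stress regulator SESN1 (-0.64 ± 0.14) and PLXNB2, a semaphorin receptor (-0.39 ± 0.08). Of 9 DNA repair members 0 were called in edgeR's test (0 higher and 6 lower at an unadjusted p under 0.05, 0 higher and 4 lower in DESeq2, 0 in limma-voom).

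Of these 11 genes, CDKN1A, MDM2, FDXR, BBC3, ZNF561 and PPM1D kept their call when any 1 of the 12 libraries was left out. In this account a number after a group's name is the replicate left out. The call of SESN1 was lost without CX-5461 treated 3 (highest adjusted p 0.0528), and that of PLXNB2 without PMR-116 vehicle 2 or 3 (highest adjusted p 0.058). That of LIF was lost without PMR-116 treated 2 or 3, PMR-116 vehicle 2 or 3, CX-5461 treated 1 or CX-5461 vehicle 2 or 3 (highest adjusted p 0.097). BTG2 lost its call without PMR-116 treated 2, PMR-116 vehicle 2 or 3, CX-5461 treated 1 or 3 or CX-5461 vehicle 1 or 3 (highest adjusted p 0.113) and BAX without any 1 library other than PMR-116 treated 1, PMR-116 vehicle 1, CX-5461 treated 2 or CX-5461 vehicle 2 (highest adjusted p 0.135). The count of lower members was 7 without PMR-116 vehicle replicate 3, 5 with only the 3 h libraries in the fit and 20 in DESeq2.

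LIF was the member with the largest called difference, at 16.6, 13.7 and 11.8 CPM with CX-5461 and 6.003, 5.66 and 5.77 with PMR-116. Its vehicle levels were 1.12, 0.449 and 0.537 CPM beside CX-5461 and 0.817, 0.959 and 0.927 beside PMR-116. Treated libraries lay above all vehicle libraries for both compounds. Other members, chosen after their values were seen, did not pass the test. The interval of the difference was -0.39 to 0.27 on the log2 scale for the stress regulator SESN2, -0.31 to 0.03 for the death receptor gene TNFRSF10B and -0.13 to 0.54 for the kinase gene PLK2. For GDF15, a secreted stress cytokine with a wide spread, it was -3.26 to -0.50 (adjusted p = 0.196).

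Of the lists examined, genes of G2 and mitosis had the most called members. Of 83 tested members 37 were called higher under PMR-116 and 0 lower, against 0.61% and 0.732% of all genes, and 64 higher and 1 lower at an unadjusted p under 0.05 (DESeq2 called 49 higher and 0 lower, limma-voom 37 and 0). Against vehicle, CX-5461 lowered 71 members and raised 0, against 6.61% and 5.05% of all genes. PMR-116 lowered 23 and raised 3, against 13.1% and 11% of all genes. Median effects were -0.55 for CX-5461 and -0.11 for PMR-116 on the log2 scale, and the difference was positive for 75 of 83, with a median of 0.41. In 75 members every CX-5461 treated library was below every CX-5461 vehicle library, and for PMR-116 this held for 28. Over all 20495 genes tested, it held for 3007 with CX-5461 and for 3702 with PMR-116. Summed over the list, CX-5461 treated libraries held 6900 to 7310 CPM against 9540 to 10200 in their vehicle, and PMR-116 treated libraries 8280 to 9090 against 9260 to 10100.

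KIF20A, a kinesin of the central spindle, was at 83.4, 77.2 and 74.6 CPM in CX-5461 vehicle and 34.6, 29.4 and 26.6 in CX-5461 treated libraries. It was at 84.8, 71.6 and 70.1 CPM in PMR-116 vehicle and 62.8, 67.9 and 61.8 in PMR-116 treated libraries. All CX-5461 treated libraries were below all other libraries, and the PMR-116 treated libraries were below their vehicles by a small margin. The effect was -1.38 ± 0.09 for CX-5461 and -0.23 ± 0.08 for PMR-116, a difference of 1.14 ± 0.12 (adjusted p = 2.17e-05). CENPE, a kinetochore motor, stood at 51.6, 46.9 and 44.9 CPM with CX-5461 and 109, 91.04 and 83.1 with PMR-116. Its vehicle levels were 121, 107 and 99.6 CPM beside CX-5461 and 122, 84.96 and 87.2 beside PMR-116. Treated libraries overlapped vehicle libraries for PMR-116 but not for CX-5461, and the difference was 1.14 ± 0.17 (adjusted p = 0.000874).

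All 4 roles took part. Among 18 cyclins and kinases of mitotic entry 4 were called higher, with medians of -0.522 for CX-5461 and -0.179 for PMR-116: AURKA, a kinase of centrosome maturation, GTSE1, CCNB1, which encodes cyclin B1, and PLK1. CCNB1 (0.53 ± 0.13) lost its call without PMR-116 treated 1, PMR-116 vehicle 2 or 3, CX-5461 treated 2 or 3 or CX-5461 vehicle 1 or 2 (highest adjusted p 0.122), and PLK1 (0.59 ± 0.14) without PMR-116 treated 1, PMR-116 vehicle 2 or 3, CX-5461 treated 1 or 3 or CX-5461 vehicle 1 or 3 (highest adjusted p 0.121). Among 26 kinesins and spindle genes the difference was positive for 26 and called for 15, with medians of -0.564 and -0.092. Among 19 kinetochore and checkpoint genes 10 were called, with medians of -0.562 and -0.108. Among 20 genes of mitotic exit, ubiquitination and chromosome structure 8 were called, with medians of -0.568 and -0.094. The latter included PIF1, a DNA helicase (1.45 ± 0.26, adjusted p = 0.00356), and PSRC1, which binds spindle microtubules (1.33 ± 0.17, adjusted p = 0.000136).

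**Figure D3:**
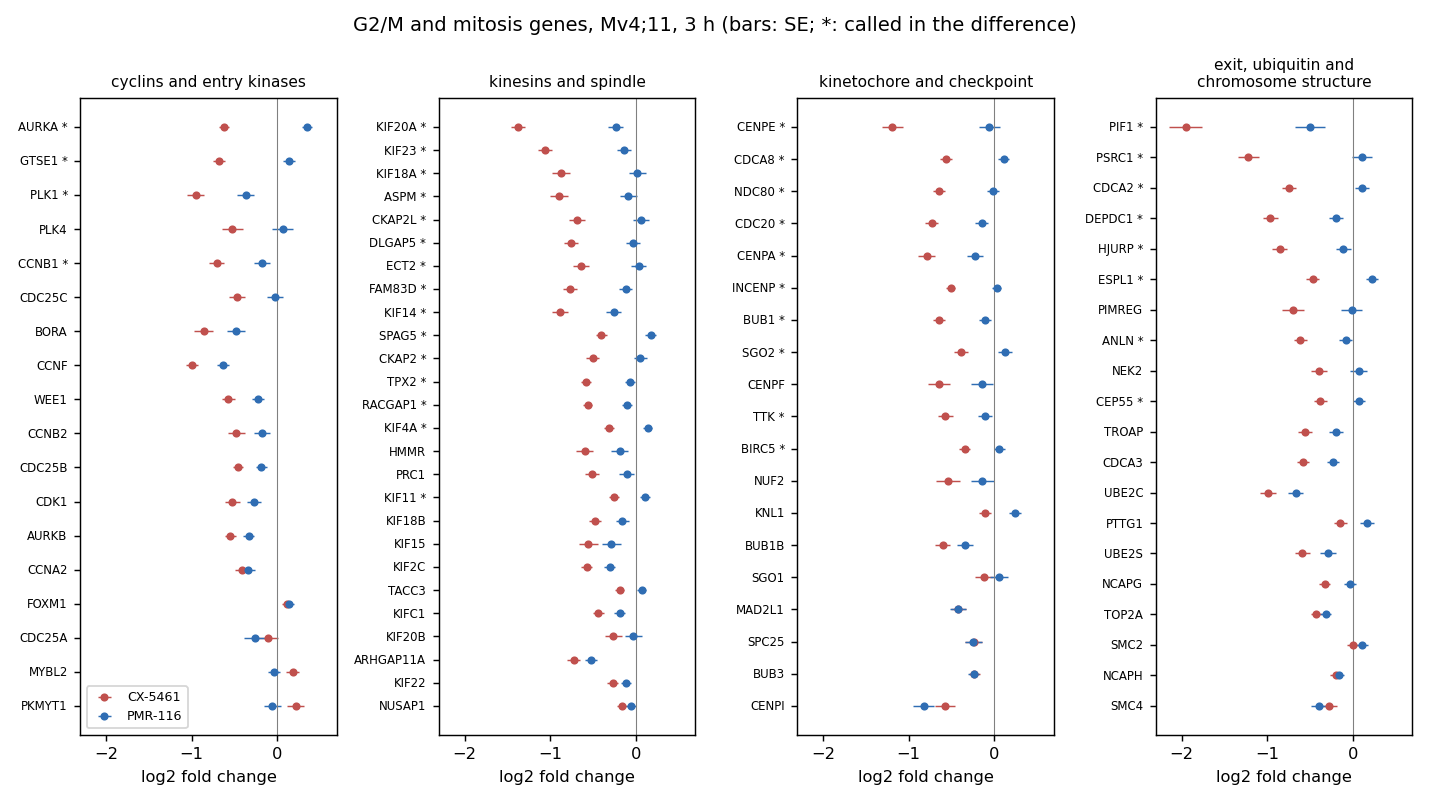
Log2 fold change against vehicle for each of the 83 tested mitotic genes by role, CX-5461 in red and PMR-116 in blue, with bars for the SE and an asterisk for the 37 genes called in the difference. Most red points lie left of zero and of the blue points. A few genes near the foot of the panels, such as FOXM1 and MAD2L1, have points that nearly coincide.

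Of the 37 called mitotic genes, CX-5461 lowered all 37, and PMR-116 was called for 6: it raised AURKA and ESPL1 and lowered PLK1, PIF1, KIF20A and KIF14. The difference for KIF14, a kinesin of cytokinesis (0.63 ± 0.13), lost its call without PMR-116 vehicle 3 or CX-5461 vehicle 1 (highest adjusted p 0.0561). In every fit that left out 1 of the 12 libraries, 28 of the 37 kept their call, and the number called ran from 28 without PMR-116 vehicle replicate 3 to 40. Some members, chosen after their values were seen, did not pass the test. The interval of the difference was -0.08 to 0.30 for TOP2A, a topoisomerase, -0.17 to 0.30 for CCNA2, which encodes cyclin A2, and -0.15 to 0.21 for FOXM1, a transcription factor of the G2 programme. Replication and G1/S genes, by contrast, had 0 called of 58 in edgeR's test (2 higher and 5 lower at an unadjusted p under 0.05, 0 higher and 1 lower in DESeq2, 0 in limma-voom), with a median difference of -0.04. For 52 of the 58 the interval lay within 0.5 log2 of zero.

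Promoters of many mitotic genes share sequence elements. Such elements belong to the list whatever the compounds did, and their part in the differences was not tested. These are the cell cycle homology region (CHR, searched as TTTGAA or TTCGAA on both strands), which binds DREAM, and the CCAAT box, which binds NF-Y. In RefSeq windows from 250 bases before to 50 after the start (GRCh38.p14), 12209 tested genes had a promoter entry, among them 68 of the 83 mitotic genes. A CHR hexamer occurred in 49 of the 68 (72.1%), in 25 of the 30 matched among those called in the difference (83.3%) and in 24 of the 38 not called (63.2%), against 11.9% of all 12209 windows, 8.16% of replication and G1/S genes and 8.62% of p53 targets. CCAAT occurred in 72.1% of mitotic windows and 36.4% of all windows, and in 57.1% of replication and G1/S windows. The E-box CACGTG was in 11.8% and 9.65%, and the CRE TGACGTCA in 8.82% and 2.98%. A match is a description of these letters, not a binding site that was measured. The 5 stretches printed here lie upstream of called genes and show how the elements sit together, chosen after their values were seen to span large and moderate differences, with the CHR hexamer and every CCAAT box, on either strand, in capitals, written 5′ to 3′ on the gene's strand:
KIF23, chr15:69414275-69414314, plus strand: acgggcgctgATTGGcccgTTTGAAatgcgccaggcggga
PSRC1, chr1:109283154-109283229, minus strand: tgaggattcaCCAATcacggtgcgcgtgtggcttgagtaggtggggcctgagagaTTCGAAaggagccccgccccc
PIF1, chr15:64825648-64825805, minus strand: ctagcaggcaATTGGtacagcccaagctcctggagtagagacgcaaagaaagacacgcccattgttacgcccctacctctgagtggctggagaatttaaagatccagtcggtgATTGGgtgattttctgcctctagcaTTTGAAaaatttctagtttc
GTSE1, chr22:46296834-46296864, plus strand: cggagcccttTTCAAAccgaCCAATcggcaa
INCENP, chr11:62123894-62124010, plus strand: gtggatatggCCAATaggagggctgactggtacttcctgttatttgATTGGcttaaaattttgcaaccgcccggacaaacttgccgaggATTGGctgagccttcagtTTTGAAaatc

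In these 5 stretches the CHR hexamer begins 55 bases before the start in KIF23, 29 in PSRC1, 20 in PIF1, 26 in GTSE1 and 10 in INCENP, and each stretch also holds at least 1 CCAAT box. KIF23, a kinesin of cytokinesis, had a difference of 0.92 ± 0.11, with effects of -1.05 for CX-5461 and -0.14 for PMR-116. GTSE1, a microtubule-binding regulator of p53, had 0.82 ± 0.10, and INCENP, the scaffold of the chromosomal passenger complex, 0.54 ± 0.07. The 2 mitotic genes with the largest differences after PIF1 and PSRC1 had no CHR hexamer in the 250 bases before the start: KIF20A had 2 CCAAT boxes and CENPE had 0.

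In 11 genes the compounds were called in opposite directions, and the gene with the largest difference among those at 5 CPM or more was AURKA. It was at 88.97, 93.98 and 85.6 CPM in CX-5461 vehicle and 59.4, 59.3 and 56.03 in CX-5461 treated libraries. It was at 89.5, 87.04 and 82.7 CPM in PMR-116 vehicle and 106, 112 and 113 in PMR-116 treated libraries. Every CX-5461 treated library lay below, and every PMR-116 treated library above, all vehicle libraries. The effects were -0.62 ± 0.06 and 0.35 ± 0.06, and the difference was 0.97 ± 0.09 (adjusted p = 1.43e-06). ESPL1, which encodes separase, the protease that opens cohesin, showed the same pattern (-0.47 ± 0.07 for CX-5461, 0.22 ± 0.07 for PMR-116), as did ING1, a chromatin reader (-0.29 ± 0.08 and 0.33 ± 0.08). The reverse, a rise under CX-5461 and a fall under PMR-116, held for SIGLEC14, a myeloid lectin (0.38 ± 0.11 and -0.40 ± 0.12), for PLEKHG4, a guanine nucleotide exchange factor (0.27 ± 0.09 and -0.29 ± 0.09), and for MRM2, a mitochondrial ribosomal RNA methyltransferase (0.25 ± 0.06 and -0.26 ± 0.06). The call in the difference was lost for SIGLEC14 without PMR-116 vehicle 3 (highest adjusted p 0.0535) and for PLEKHG4 without PMR-116 treated 2, PMR-116 vehicle 2, CX-5461 treated 1 or CX-5461 vehicle 3 (highest adjusted p 0.0665). SIGLEC14 is nearly identical to SIGLEC5 over part of its length, so its reads may be split between them. For PLEKHG4 the vehicle groups did not overlap, at 42.8 to 52.1 CPM beside PMR-116 and 38.8 to 41.4 beside CX-5461. Its PMR-116 treated libraries, at 36.6 to 41.7 CPM, lay around the level of the CX-5461 vehicle, so its fall under PMR-116 rests on the higher PMR-116 vehicle.

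NECTIN4, a cell adhesion gene, was the most negative of the named genes. It stood at 0.788, 0.719 and 1.21 CPM in CX-5461 vehicle and at 12.4, 11.3 and 15.8 with CX-5461. It stood at 1.32, 1.26 and 0.798 CPM in PMR-116 vehicle and at 2.94, 3.099 and 1.7 with PMR-116. Both treated groups lay above their vehicles and did not overlap each other. The rise was 14.6-fold under CX-5461 and 2.29-fold under PMR-116, a difference of -2.67 ± 0.36 (adjusted p = 0.000359). IL21R, a cytokine receptor, was raised by CX-5461 (1.85 ± 0.16) and had 0.25 ± 0.16 under PMR-116, which was not called (difference -1.60 ± 0.23, adjusted p = 0.000525). TSPAN33, a tetraspanin, had effects of 1.13 ± 0.14 and -0.24 ± 0.15 with CX-5461 and PMR-116, and CSPG4, a surface proteoglycan, 1.35 ± 0.11 and 0.05 ± 0.11. In both the effect of CX-5461 was called and that of PMR-116 was not.

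Other genes with negative differences fell under PMR-116. NFE2, a transcription factor of blood cells, was at 11.9, 10.2 and 11.9 CPM in PMR-116 vehicle and 3.27, 2.46 and 2.86 with PMR-116. It was at 10.6, 10.6 and 10.7 CPM in CX-5461 vehicle and 6.33, 5.42 and 6.13 with CX-5461. Both treated groups lay below their vehicles, and the difference was -1.16 ± 0.17 (adjusted p = 0.000593). PTPN22, a phosphatase of immune signalling, was lowered by PMR-116 (-1.34 ± 0.13) and had -0.28 ± 0.12 under CX-5461. POU2F2, an octamer-binding factor (-1.12 ± 0.21), LZTS1, a leucine zipper gene (-1.15 ± 0.20), and F2R, the thrombin receptor (-1.21 ± 0.21), were also lowered by PMR-116, with effects of -1.24, -0.93 and -1.37, and were not called for CX-5461. FCER1A, the alpha chain of the IgE receptor, was raised by both compounds and less so by PMR-116 (-1.29 ± 0.30), and its call was lost without PMR-116 treated 2 or 3, PMR-116 vehicle 3, CX-5461 treated 1 or 3 or CX-5461 vehicle 1 or 2 (highest adjusted p 0.0943). FOXO3B had -1.27 ± 0.28, but it is a near copy of FOXO3, so its reads may be split, and its call was lost without PMR-116 treated 2, PMR-116 vehicle 3, CX-5461 treated 3 or CX-5461 vehicle 1 or 3 (highest adjusted p 0.073).

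On the positive side, HEXIM1, the inhibitor of the elongation kinase P-TEFb, was raised by both compounds and more by PMR-116. It stood at 55.1, 55.4 and 54.8 CPM in CX-5461 vehicle, 76.8, 86.7 and 81.8 with CX-5461, 59.6, 60.4 and 54.2 in PMR-116 vehicle and 150, 167 and 194 with PMR-116. The PMR-116 libraries were above all others, and the rise was 2.93-fold against 1.48-fold, a difference of 0.98 ± 0.11 (adjusted p = 2.63e-05). Of 26 regulators of P-TEFb and elongation, HEXIM1 and MEPCE, a capping enzyme of the 7SK RNA (0.40 ± 0.09), were called higher and 0 lower. MEPCE lost its call without any 1 library other than PMR-116 treated 1, PMR-116 vehicle 2, CX-5461 treated 2 or CX-5461 vehicle 1 (highest adjusted p 0.104).

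SLFN5, of the Schlafen family, was raised by PMR-116 (1.60 ± 0.20) and had 0.03 ± 0.20 under CX-5461, with a difference of 1.57 ± 0.29 (adjusted p = 0.00408). DDIAS, a suppressor of apoptosis after DNA damage, had 0.97 ± 0.14 (adjusted p = 0.000701). GPR83, a G-protein-coupled receptor gene, had 1.61 ± 0.34, and its call was lost without PMR-116 treated 2, PMR-116 vehicle 3 or CX-5461 vehicle 1 (highest adjusted p 0.0683). KCND1, a potassium channel gene, had 1.48 ± 0.31, and lost its call without CX-5461 vehicle 3 (highest adjusted p 0.0626). TOGARAM1, a microtubule-binding gene of cilia, had 1.13 ± 0.25, and lost its call without PMR-116 vehicle 2, CX-5461 treated 1 or 3 or CX-5461 vehicle 1 or 3 (highest adjusted p 0.0662). PAQR6, of the progestin receptor family, had 1.06 ± 0.26 and lost its call without any 1 library other than PMR-116 treated 1, PMR-116 vehicle 1, CX-5461 treated 1 or CX-5461 vehicle 2 (highest adjusted p 0.142). For SLFN5, DDIAS and TOGARAM1 part of the difference lay between the vehicle groups. PMR-116 vehicle minus CX-5461 vehicle was -0.38 ± 0.21, -0.31 ± 0.10 and -0.31 ± 0.18, none of them called. The treated groups compared directly were 1.19 ± 0.20, 0.66 ± 0.10 and 0.82 ± 0.17 apart.

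Of 21 genes for RNA polymerase I and its factors, 0 were called higher and 1 lower, POLR1D, a subunit shared with RNA polymerase III (-0.41 ± 0.10), against 0.61% and 0.732% of all genes, and for 15 the interval lay within 0.5 log2 of zero. POLR1D lost its call without any 1 library other than PMR-116 treated 2, PMR-116 vehicle 1, CX-5461 treated 1 or CX-5461 vehicle 2 (highest adjusted p 0.127). For POLR1A, the largest subunit, the difference was -0.21 ± 0.11, with an interval of -0.45 to 0.02. For the initiation factor RRN3 the interval was -0.06 to 0.34. POLR1B, the second largest subunit, had -0.45 ± 0.16 with an interval of -0.77 to -0.12 (adjusted p = 0.189), and UBTF, the factor that shapes the ribosomal DNA, had -0.35 to -0.05 (adjusted p = 0.216).

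Of 115 ribosome biogenesis factors, PMR-116 lowered 75, against 13.1% of all genes, and CX-5461 lowered 51, against 6.61% of all genes. In the difference 0 were called higher and 3 lower, against 0.61% and 0.732% of all genes, and the median was -0.09. The 3 were WDR43 (-0.41 ± 0.10), NAT10, an RNA acetyltransferase (-0.37 ± 0.09), and PPAN (-0.33 ± 0.08). WDR43 lost its call without any 1 library other than PMR-116 treated 2, CX-5461 treated 3 or CX-5461 vehicle 2 (highest adjusted p 0.126), NAT10 without PMR-116 treated 3, PMR-116 vehicle 2 or 3, CX-5461 treated 3 or CX-5461 vehicle 1 or 3 (highest adjusted p 0.107) and PPAN without any 1 library other than PMR-116 treated 1, PMR-116 vehicle 1 or CX-5461 vehicle 2 (highest adjusted p 0.135). For 92 members the interval lay within 0.5 log2 of zero. Of 79 cytosolic ribosomal protein genes 0 were called in edgeR's test, with 0 at an unadjusted p under 0.05 and 0 in DESeq2 and limma-voom, and all 79 intervals lay between -0.48 and 0.35. With the replicate number as a block within each compound and time, 7 ribosome biogenesis factors were called lower.

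MYC, a regulator of ribosome production, stood at 480, 470 and 494 CPM in CX-5461 vehicle and 168, 155 and 182 with CX-5461. It stood at 493, 478 and 492 CPM in PMR-116 vehicle and 145, 106 and 108 with PMR-116. Both treated groups lay far below their vehicles, and all PMR-116 treated libraries lay below all CX-5461 treated libraries. The difference was -0.51 ± 0.13 (adjusted p = 0.0451), and the call was lost without any 1 library other than PMR-116 treated 1 or CX-5461 treated 2 (highest adjusted p 0.152). MXD3, a MAX partner, differed the other way (0.87 ± 0.20), and lost its call without PMR-116 treated 3, PMR-116 vehicle 2 or 3, CX-5461 treated 1 or 2 or CX-5461 vehicle 1 or 3 (highest adjusted p 0.0852). Of 55 MYC target genes 0 were called in edgeR's test (1 higher and 13 lower at an unadjusted p under 0.05, 0 higher and 2 lower in DESeq2, 0 in limma-voom), with a median difference of -0.09.

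**Figure D4:**
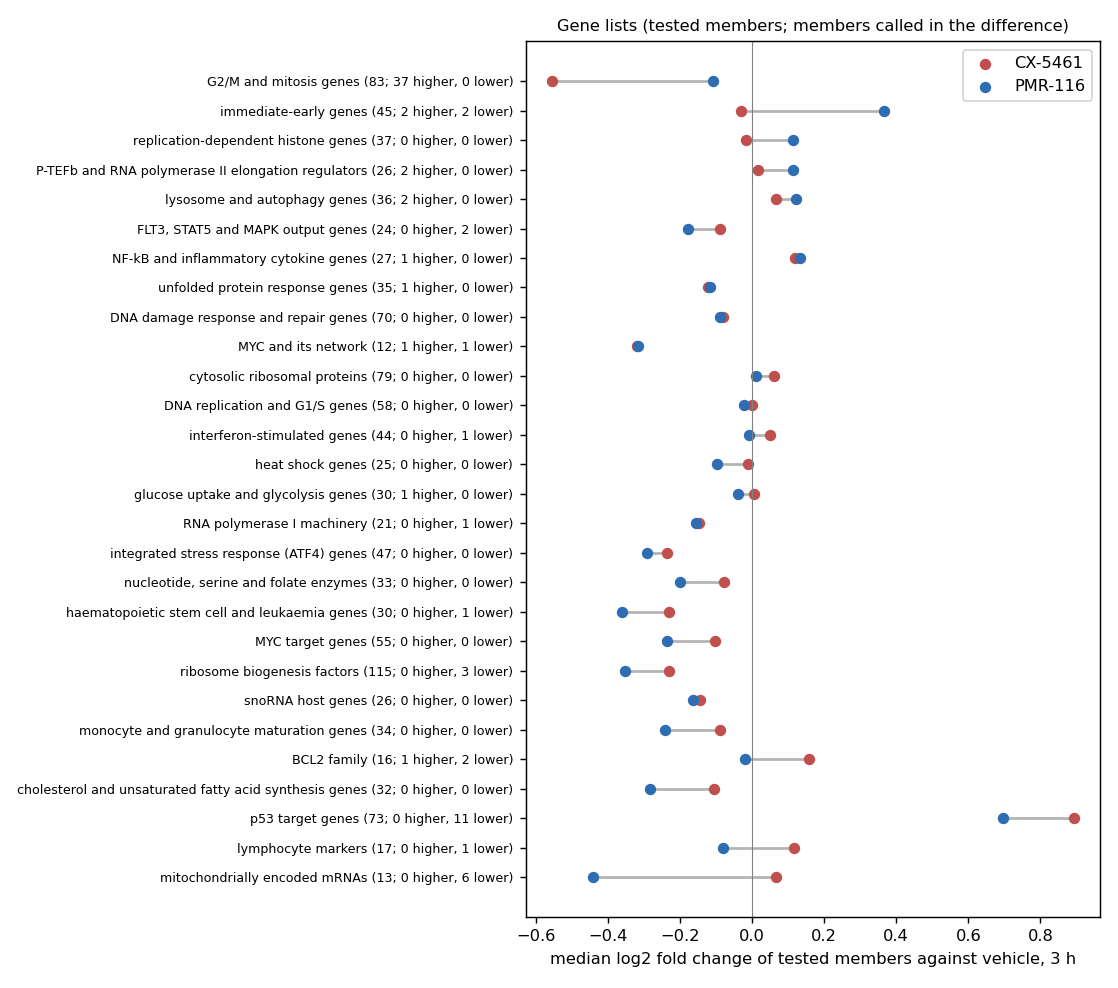
Median log2 fold change against vehicle of the tested members of each gene list at 3 h, CX-5461 in red and PMR-116 in blue, joined by a line. Beside each name are the tested members and those called higher or lower in the difference. The widest gaps belong to the mitotic genes and the mitochondrially encoded mRNAs, and the red point of the mitotic list is the lowest in the plot.

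Mitochondrially encoded mRNAs, which specify subunits of the respiratory chain and ATP synthase, had median effects of -0.44 under PMR-116 and 0.07 under CX-5461. Of 13 mRNAs PMR-116 raised 1 and lowered 9, against 11% and 13.1% of all genes, and CX-5461 raised 2 and lowered 0, against 5.05% and 6.61%. In the difference 0 were called higher and 6 lower, against 0.61% and 0.732% of all genes, with a median of -0.54. MT-CYB, the cytochrome b mRNA, stood at 1617, 1735 and 1655 CPM in CX-5461 vehicle and 1426, 1514 and 1457 with CX-5461. It stood at 1691, 1682 and 1536 CPM in PMR-116 vehicle and 949, 860 and 731 with PMR-116. All PMR-116 treated libraries lay below all other libraries, and the difference was -0.76 ± 0.14 (adjusted p = 0.00502). MT-ND4 had -0.67 ± 0.11 and MT-ND4L, whose gene overlaps it, -0.71 ± 0.12, so their reads may be shared, and the same holds for MT-ATP8 and MT-ATP6. These 3 (MT-CYB, MT-ND4 and MT-ND4L) kept their call in all 12 fits that left out 1 library. The count of called mRNAs was 3 without PMR-116 treated replicate 2, PMR-116 treated replicate 3, PMR-116 vehicle replicate 2, CX-5461 treated replicate 1, CX-5461 treated replicate 3, CX-5461 vehicle replicate 1 or CX-5461 vehicle replicate 3. It was 10 with the replicate number as a block and 10 without PMR-116 vehicle replicate 3 at 12 h.

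The effect of PMR-116 ran with the order of the genes along the mitochondrial DNA, a pattern noticed after the values were seen. The ribosomal RNAs, which come first, were higher: MT-RNR2 stood at 5881, 5361 and 6164 CPM with PMR-116 and at 3649, 2574 and 3208 in its vehicle, without overlap. MT-ND1, next in order, had 0.49 ± 0.08, MT-ND2 0.02 ± 0.09, MT-CO1 -0.03 ± 0.08, MT-CO3 -0.43 ± 0.09, MT-ND4 -0.61 ± 0.08 and MT-CYB, the last mRNA, -0.95 ± 0.10. CX-5461 effects ran from -0.19 for MT-CYB to 0.33 for MT-CO2 in these mRNAs. Over the 12 mRNAs of the shared strand, Spearman's rank correlation of effect with order was -0.797 for PMR-116, -0.49 for CX-5461 and -0.741 for the difference, a description over genes that are cut from the same transcript. At 12 h it was -0.895, -0.869 and -0.923 (-0.923 for PMR-116 and -0.944 for the difference without PMR-116 vehicle replicate 3), and in the line KG-1 at 3 h it was -0.958, -0.72 and -1. Libraries were poly(A)-selected, and the part of this selection in the ribosomal RNA values was not tested. The share of counts on mitochondrial genes was 4.12 to 4.54% with PMR-116 against 4.24 to 4.66% in its vehicle, and 4.83 to 4.92% with CX-5461 against 4.5 to 4.51%.

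**Figure D5:**
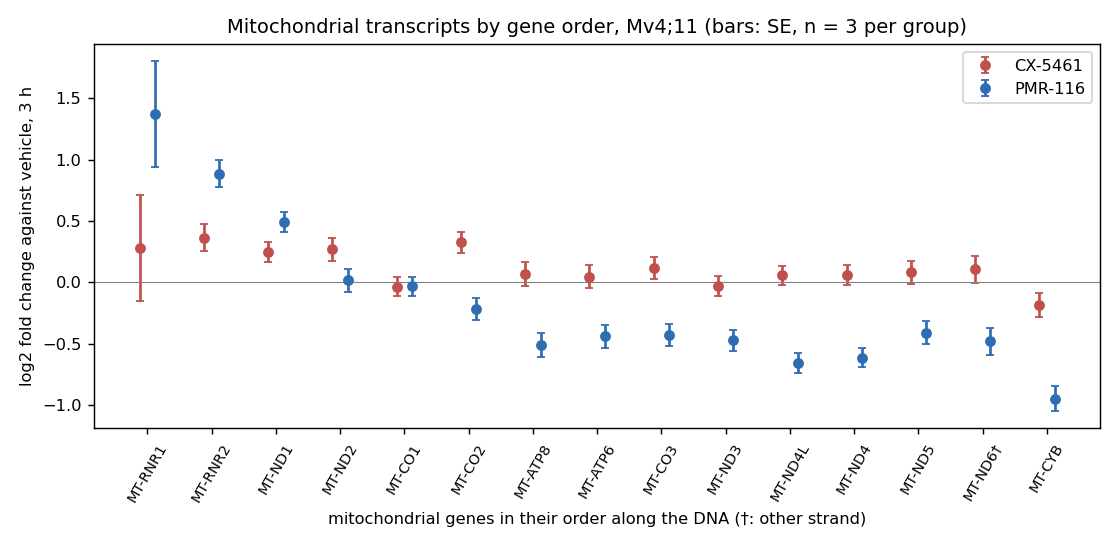
Log2 fold change against vehicle at 3 h of mitochondrial transcripts in their order along the mitochondrial DNA, with bars for the SE of 3 libraries per group. PMR-116 (blue) falls from 1.37 at MT-RNR1 to -0.95 at MT-CYB, while CX-5461 (red) stays between -0.19 and 0.36. MT-ND6 is read from the other strand.

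For the other gene lists, the shares of all genes to set beside each count are 0.61% called higher and 0.732% called lower. Of 45 immediate-early genes 2 were called higher under PMR-116, JUNB (0.62 ± 0.14) and KLF10 (0.50 ± 0.11), and 2 lower, MYC and BTG2, with a median of 0.24. JUNB lost its call without PMR-116 treated 1 or 3, PMR-116 vehicle 3, CX-5461 treated 1 or 3 or CX-5461 vehicle 1 or 2 (highest adjusted p 0.09), and KLF10 without PMR-116 treated 3, PMR-116 vehicle 3, CX-5461 treated 1 or 3 or CX-5461 vehicle 2 (highest adjusted p 0.0813). Integrated stress response genes (47) had 0 called, with 0 higher and 3 lower at an unadjusted p under 0.05 and 0 in DESeq2 and limma-voom, and a median of -0.07. DNA damage response and repair genes (70) had 0 called, with 6 higher and 6 lower at an unadjusted p under 0.05, 1 higher in DESeq2 and 0 in limma-voom, and a median of 0.01.

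Among signalling genes, 24 outputs of FLT3, STAT5 and MAPK had 2 called lower, the kinase gene PIM2 (-0.78 ± 0.14, adjusted p = 0.00512) and STAT5A, a transcription factor of cytokine receptors (-0.60 ± 0.10, adjusted p = 0.002), and 0 higher. Of 30 stem cell and leukaemia genes CD33, a myeloid lectin (-0.46 ± 0.09), was called lower, and of 34 genes of monocyte and granulocyte maturation 0 were called (0 higher and 6 lower at an unadjusted p under 0.05, 0 in DESeq2 and limma-voom). Of 16 members of the BCL2 family BBC3 and BAX were lower and MCL1, a survival factor (0.36 ± 0.08), higher. MCL1 lost its call without PMR-116 vehicle 2 or 3, CX-5461 treated 1 or 3 or CX-5461 vehicle 1 (highest adjusted p 0.0759), and BAX without any 1 library other than PMR-116 treated 1, PMR-116 vehicle 1, CX-5461 treated 2 or CX-5461 vehicle 2 (highest adjusted p 0.135). Of 36 lysosome and autophagy genes MAP1LC3B (0.48 ± 0.11) and ATG14 (0.46 ± 0.12) were higher. The call of MAP1LC3B was lost without PMR-116 treated 3, PMR-116 vehicle 2 or 3, CX-5461 treated 2 or 3 or CX-5461 vehicle 1 (highest adjusted p 0.108) and that of ATG14 without any 1 library other than PMR-116 treated 1, PMR-116 vehicle 1 or CX-5461 vehicle 2 (highest adjusted p 0.147). Among 30 glycolysis genes ARRDC4, an arrestin relative, was higher (0.88 ± 0.16).

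Among markers of other lineages, of 8 erythroid and megakaryocyte markers 0 were called, of 6 fibroblast, endothelial and epithelial markers 0, and of 17 lymphocyte markers BLNK was lower (-1.93 ± 0.47), with its call lost without any 1 library other than PMR-116 treated 2, PMR-116 vehicle 2 or CX-5461 treated 2 (highest adjusted p 0.111). DESeq2 and limma-voom each called 1 erythroid and megakaryocyte marker lower, and at an unadjusted p under 0.05 there were 1 lower among those and 1 lower among the fibroblast, endothelial and epithelial markers. Single calls were also made for SYVN1 among 35 unfolded protein response genes (0.32 ± 0.08), for CCL3 among 27 inflammatory genes (1.77 ± 0.44) and for TRIM22 among 44 interferon-stimulated genes (-0.41 ± 0.10). CCL3 was low, at 1.1 to 2.14 CPM with PMR-116 and 0.394 to 0.595 in its vehicle. With CX-5461 it was at 0.506 to 0.678 CPM, and in that vehicle at 0.504 to 0.758. SYVN1 lost its call without any 1 library other than PMR-116 vehicle 1 or CX-5461 vehicle 2 (highest adjusted p 0.126), CCL3 without any 1 library other than PMR-116 treated 2 (highest adjusted p 0.131) and TRIM22 without any 1 library other than PMR-116 treated 1 or CX-5461 treated 2 (highest adjusted p 0.127).

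After 12 h with the same compounds and doses, the difference was tested in the same fit. PMR-116 vehicle replicate 3 at 12 h stands apart, with 2607 CPM of MT-RNR1 against 320 to 365 in the other 5 vehicle libraries at 12 h and 1126 CPM of MALAT1, a nuclear noncoding RNA, against 59.4 to 73.6. At that time 1047 genes (5.11%) were called either way, 260 (1.27%) higher and 787 (3.84%) lower under PMR-116. Of the 275 genes of 3 h, 241 had the same sign at 12 h and 77 were called again with that sign. Genes higher at 3 h had a median difference of 0.591 at 3 h and 0.221 at 12 h, and genes lower at 3 h had -0.625 and -0.301. These genes were chosen by their difference at 3 h, so smaller medians at 12 h are no measure of change over time. No share of all genes with the same sign at both times is given beside these counts. Of 83 mitotic genes 8 were called higher and 3 lower at 12 h, with a median of 0.12. Replication and G1/S genes, with 0 called at 3 h, had 0 higher and 32 lower of 58 at 12 h, with a median of -0.44. Without PMR-116 vehicle replicate 3 at 12 h the mitotic genes had 5 higher and 2 lower, the replication and G1/S genes 0 higher and 35 lower, and 240 of the 275 genes kept the sign of 3 h, with 68 called again.

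The change in the difference between the times was called for 42 genes (0.205%). Among them were 4 mitotic genes: KIF20A (1.14 ± 0.12 at 3 h, 0.16 ± 0.12 at 12 h), AURKA (0.97 and 0.12 ± 0.09), KIF23 (0.92 and 0.00 ± 0.11) and INCENP (0.54 and -0.06 ± 0.07), the last of which was singled out after its values were seen. Replication genes were among them too, such as MCM2 (change of -0.63 ± 0.09), MCM4 (-1.01 ± 0.20) and MCM6 (-0.89 ± 0.16), also singled out after their values were seen. CAMSAP1, which binds microtubule minus ends, had 0.67 ± 0.14 at 3 h and -0.59 ± 0.14 at 12 h, and CRYBG1 had -0.80 ± 0.16 and 0.87 ± 0.16. SLC38A5, an amino acid transporter, had -0.22 ± 0.15 and -1.72 ± 0.16. The count was 171 with the replicate number as a block within each compound and time. Without PMR-116 vehicle replicate 3 at 12 h it was 62, and KIF20A, AURKA, KIF23, INCENP, CAMSAP1, CRYBG1 and SLC38A5 kept an adjusted p of at most 0.01923.

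In KG-1, another acute myeloid leukaemia line with 4 libraries per group, the difference at 3 h was called for 2 genes, with 1154 at an unadjusted p under 0.05. The test of Mv4;11 against KG-1 called 21 of 23759 genes (0.0884%), and 37 with library totals in place of TMM scaling. Line and batch are the same split, so they cannot be told apart, but each effect was taken within its own batch. Of the 275 genes, 222 (80.7%) had the same sign in KG-1, and the share over all genes is not given here. Medians in KG-1 were 0.118 for those higher and -0.0988 for those lower under PMR-116 in Mv4;11. As these genes were chosen by their Mv4;11 values, smaller medians in KG-1 are no measure of a difference between lines. Mitotic genes had median effects of -0.15 for CX-5461 and -0.04 for PMR-116 in KG-1. Of the 83, CX-5461 raised 2 and lowered 20, against 1.11% and 1.15% of all genes. PMR-116 raised 3 and lowered 2, against 2.1% and 2.81% of all genes. Targets of p53 had medians of 0.00 for CX-5461 and -0.02 for PMR-116.

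Among the named genes, MDM2 differed between the lines: the difference was -0.93 in Mv4;11 and -0.03 ± 0.12 in KG-1 (-0.89 ± 0.18 between them, adjusted p = 0.0205). Neither compound was called for MDM2 in KG-1, with effects of -0.17 ± 0.09 for PMR-116 and -0.14 ± 0.08 for CX-5461. KIF20A was 0.30 ± 0.10 in KG-1 (0.85 ± 0.16 between lines), AURKA 0.37 ± 0.08 (0.61 ± 0.12) and KIF23 0.14 ± 0.11 (0.79 ± 0.17). HEXIM1 was raised by both compounds in KG-1 too, with effects of 0.83 for PMR-116 and 0.57 for CX-5461, and its difference there was 0.26 ± 0.09 (0.73 ± 0.13 between lines). TSPAN33 (-1.07 ± 0.18), F2R (-1.09 ± 0.20), NFE2 (-0.92 ± 0.19) and PTPN22 (-1.04 ± 0.21) were more negative in Mv4;11 than in KG-1.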

How the data were processed

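The data are estimated counts per gene symbol that the authors deposited, with each line in a table of its own. Salmon 1.5.2, DESeq2 and GRCh38.p13 appear in the submitters' processing notes without roles. For the annotation release and for strandedness in counting, the setting is not given in the sources used here. RNA was poly(A)-selected with the Illumina Stranded mRNA kit, per the labels' protocols. The Mv4;11 table has 24 further columns that match no sample and were not used.

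Counts were rounded and analysed with edgeR 4.0.16 (R 4.3.3): filterByExpr (minimum count 10, total 15; 20495 genes), TMM scaling, and a quasi-likelihood fit of the 24 Mv4;11 libraries in 8 groups. KG-1 was compared in a joint fit of 56 libraries in 16 groups. Tests were 2-sided, with Benjamini-Hochberg adjustment over all genes, called under 0.05. Values after ± are SE, CPM use TMM-adjusted library sizes, and intervals are 95% with t quantiles. limma 3.58.1 (voom) and DESeq2 1.42.0 were alternatives. Tables were made with Python 3.11.15, pandas 2.3.3 and scipy 1.17.1. Promoters are from RefSeq, GRCh38.p14. The fit was tested on simulated counts.

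Named genes were the 12 most positive and 12 most negative differences among called protein-coding genes at 5 CPM or more in the highest group, whose treated and vehicle libraries did not overlap for at least 1 compound. To these were added the 6 largest differences among genes with opposite called effects, up to 4 called members per list and direction, and CDKN1A, MDM2, MYC, POLR1A, POLR1B, RRN3 and UBTF. For the contrasts of time and line, the 4 most positive and the 4 most negative were also named, and 1 of these is not reported here. The comparison and the gene lists were chosen with earlier results of these data known. Deviations of same-numbered libraries from their group means correlated at 0.126 to 0.494 in all 12 pairs compared at 3 h. Those of different-numbered libraries correlated at -0.350 to 0.129. The main fit did not use replicate numbers, which entered only as the block alternatives.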

Additional observations from a re-analysis of the deposited data

Results flagged for a closer look

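These genes were singled out because the difference between the compounds itself differed between times or between lines, by the test of that change (edgeR's quasi-likelihood test, 2-sided, adjusted over all genes). From 3 h to 12 h in Mv4;11, it moved downward for KIF20A (change of -0.98 on the log2 scale), AURKA (-0.85), KIF23 (-0.92), UNC5A, a netrin receptor gene (-1.71), SLC38A5 (-1.51), CAMSAP1 (-1.25) and ESPN, an actin-bundling gene (-1.25). It moved upward for CRYBG1 (1.67), FCGR2A, an Fc receptor gene (0.86), and SMPD3, a sphingomyelinase gene (0.85). All 10 remained called without PMR-116 vehicle replicate 3 at 12 h and with library totals in place of TMM scaling. They also remained called with the replicate number as a block within each compound and time.

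Between Mv4;11 and KG-1 at 3 h, the difference was more positive in Mv4;11 for KIF20A (by 0.85), HEXIM1 (0.73), DDIAS (1.16), AURKA (0.61) and KIF23 (0.79). It was more negative in Mv4;11 for TSPAN33 (-1.07), F2R (-1.09), NFE2 (-0.92), PTPN22 (-1.04), MDM2 (-0.89) and STAT5A (-0.50). All 11 remained called with library totals.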

How the results depend on the processing

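No named gene changed direction under any alternative run. The 275 calls of the difference (125 higher, 150 lower) became 714 without the low-count filter (344 and 370), 608 in DESeq2 (267 and 341), 139 with only the 3 h libraries in the fit (64 and 75), and 1398 when treated libraries were compared directly without their vehicles (624 and 774). With the replicate number as a block shared by all groups the count was 363. Nested in each compound and time, the block gave 480 (203 and 277). Of 59 named genes called in the difference, 59 kept their call with the shared block, 57 with the nested block (BAX and CCL3 lost), 59 in DESeq2, 55 in limma-voom and 35 with only the 3 h libraries. Leaving out 1 of the 12 libraries gave 143 to 458 calls (67 to 170 higher, 76 to 288 lower), with 34 to 53 of the 59 kept. CX-5461 calls ran from 1573 to 1948 in the fits that left out 1 CX-5461 treated or vehicle library. The change between times was called for 171 genes with the nested block, and that between lines for 37 with library totals. The causes of these shifts were not tested. With 3 libraries per group, small differences in genes of low count were not detectable at this depth.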
